A study of Mus musculus with 4 samples.

Results

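The rows of small nucleolar RNAs (snoRNAs), small Cajal body-specific RNAs (scaRNAs) and snoRNA host genes were examined in sorted mouse spermatocytes. Members were the rows of the deposited TPM tables whose gene name starts with Snora, Snord, Scarna or Snhg followed by a digit, or is Gas5, a rule on names. There were 135 such rows among the 24411 rows of each table. Of these, 74 carry a Snord name (box C/D snoRNAs), 36 a Snora name (box H/ACA snoRNAs), 9 a Scarna name and 16 are host genes. The 16 host genes were listed above 0 TPM in nearly every library, whereas only 32 of the 119 snoRNA and scaRNA rows were above 0 in any library. Of the 119 rows, 51 were shorter than the 75-nt reads, so a 0 there says nothing about their level.

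SnoRNAs are short nuclear RNAs that guide the chemical modification of other RNAs. Box C/D snoRNAs guide methylation of the ribose and box H/ACA snoRNAs guide the conversion of uridine to pseudouridine, mostly in ribosomal RNA, while scaRNAs guide the same reactions on the RNAs of the spliceosome. In mammals most of them are cut from introns of a host transcript after splicing, and the host is either a ribosomal protein or other growth-related gene or a long noncoding RNA such as Gas5 and the Snhg genes, whose spliced RNA is often removed by nonsense-mediated decay. Mature snoRNAs have no poly(A) tail, so a library made from poly(A) RNA, as here, is expected to hold few of them.

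Printed here 5′ to 3′ are the 5 rows that were above 0 in all 4 libraries, followed by 3 rows that were at 0 in every library although their hosts were measured. The letters come from GENCODE M21 transcripts (GRCm38, the assembly also named mm10), trimmed to the RefSeq span where GENCODE contains it. Capitals mark TGATGA within the first 20 bases and CTGA within the last 20 for Snord rows (boxes C and D), and ACA followed by 3 bases at the end for Snora and Scarna rows (box ACA), all read on the strand of the transcript only. Among the 1558 snoRNA and scaRNA genes of GENCODE, all classes together, 20.2% hold both box C/D motifs and 19.3% hold ACA at that place. Among GENCODE genes with the names of members, 44 of 72 Snord genes (61.1%) hold both box C/D motifs. ACA is at that place in 31 of 38 Snora genes (81.6%).
Snord22 (chr19:8725866-8725991, + strand, 126 nt, inside Snhg1): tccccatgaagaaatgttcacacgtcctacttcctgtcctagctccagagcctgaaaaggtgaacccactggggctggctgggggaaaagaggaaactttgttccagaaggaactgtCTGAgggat
Snora17 (chr2:26639190-26639321, - strand, 132 nt, inside Snhg7): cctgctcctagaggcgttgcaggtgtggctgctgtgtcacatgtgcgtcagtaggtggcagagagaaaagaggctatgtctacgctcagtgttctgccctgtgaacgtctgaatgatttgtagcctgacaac
Snora64 (chr17:24720789-24720905, + strand, 117 nt, inside Rps2): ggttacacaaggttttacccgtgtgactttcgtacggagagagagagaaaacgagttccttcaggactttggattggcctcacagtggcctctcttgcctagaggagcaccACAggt
Snora78 (chr17:24719676-24719803, - strand, 128 nt as in GENCODE and 157 nt in RefSeq, inside Snhg9): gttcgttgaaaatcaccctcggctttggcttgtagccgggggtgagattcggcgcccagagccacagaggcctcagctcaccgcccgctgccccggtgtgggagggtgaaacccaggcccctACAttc
Scarna13 (chr12:105031075-105031349, - strand, 275 nt, inside Snhg10): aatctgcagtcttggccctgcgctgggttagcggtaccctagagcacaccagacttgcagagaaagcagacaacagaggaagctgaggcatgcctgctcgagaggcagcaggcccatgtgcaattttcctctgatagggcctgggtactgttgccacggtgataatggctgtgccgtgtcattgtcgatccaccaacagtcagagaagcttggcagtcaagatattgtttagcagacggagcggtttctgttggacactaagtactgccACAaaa
Snora24 (chr3:123507937-123508066, - strand, 130 nt, inside Snhg8, at 0): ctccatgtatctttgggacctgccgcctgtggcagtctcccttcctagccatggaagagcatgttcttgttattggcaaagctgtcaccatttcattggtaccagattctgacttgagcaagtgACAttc
Snord47 (chr1:161038092-161038156, + strand, 65 nt, inside Gas5, at 0): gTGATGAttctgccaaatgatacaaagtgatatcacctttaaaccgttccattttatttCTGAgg
Snord87 (chr1:9942470-9942543, - strand, 74 nt, inside Snhg6, at 0): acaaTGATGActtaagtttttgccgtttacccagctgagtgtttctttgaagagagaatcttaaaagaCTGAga

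The libraries came from GFP-positive cells sorted at postnatal day 18 from testes of mice that all carried the allele Rec8-3xFLAG-HA-p2A-GFP, a knock-in in which GFP is made from the locus of the meiotic cohesin gene Rec8, so the cells are enriched for meiotic prophase. There were 2 control libraries from Zfp541+/- mice and 2 from mice labelled Zfp541 KO (called KO 1 and KO 2, or the KO-labelled libraries), whose allele lacks exons 1 to 13 of Zfp541, each library from 1 testis. The knock-in was homozygous in both KO mice and in 1 control and heterozygous in the other control, and the labels do not say which control is which. The labels give a mixed C57BL/6 and CBA strain. Zfp541 itself was measured at 112 TPM in control 1, 72.2 in control 2, 136 in KO 1 and 151 in KO 2. The knocked-out gene was therefore no lower in the KO-labelled libraries, and every direction given here rests on the labels. Its log2 fold change was 0.98 without control 1 and 0.35 without control 2. The tables give 1 value per gene, in which deleted and retained exons are not kept apart.

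The libraries of a group also differed from each other. Rec8 was at 7.05 TPM in control 1, 27.9 in control 2, 27.7 in KO 1 and 19.4 in KO 2. The summed TPM of 5 Leydig cell markers was 2873 in control 1, 18.0 in control 2, and 324 and 491 in the KO-labelled libraries, and that of 4 macrophage markers was 1568, 15.3, 1286 and 924, with every marker of both lists above 0 in every library. The sum of 8 pachytene markers ranged from 3378 to 6278 in the controls and from 1925 to 2626 in the KO-labelled libraries, and that of 8 leptotene and zygotene markers from 2060 to 2554 and from 3959 to 4096, again with none at 0. The pachytene sum was thus lower, and the leptotene and zygotene sum higher, in both KO-labelled libraries than in both controls. The latter list includes Sycp1 and Sycp3, whose proteins are also present at pachytene, so its sum does not mark those stages alone. The sum of 6 round spermatid markers was 17.5 and 13.9 in the controls and 28.7 in each KO-labelled library, with up to 5 markers at 0. In bulk samples, fewer cells of a type and less RNA per cell cannot be told apart. The part of these differences in the results below was not tested.

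Detection followed the length of the row. By RefSeq lengths, 51 snoRNA and scaRNA rows were at most 75 nt long, the length of the reads, and 0 of them were above 0 TPM in any library. These rows ran from 28 to 74 nt and offer no start position to a full 75-nt read. Their 0 was thus fixed by length and says nothing about their level. Of the 25 rows from 76 to 99 nt, 10 were above 0 in at least 1 library, and of the 42 rows of 100 nt and over, 22 were. The shortest rows above 0 were Snord83b at 77 nt and Snord1c at 78 nt. The microRNA rows showed the same edge, with 0 of 466 rows of at most 75 nt and 60 of 706 longer rows above 0 in any library. Below 75 nt this edge, too, was fixed by length. Snord116, a row with no match in RefSeq, was at 0 in every library. Lengths differed between RefSeq and GENCODE for 103 of the 115 rows found in both, and 22 rows of at most 75 nt in RefSeq are longer in GENCODE.

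**Figure D1:**
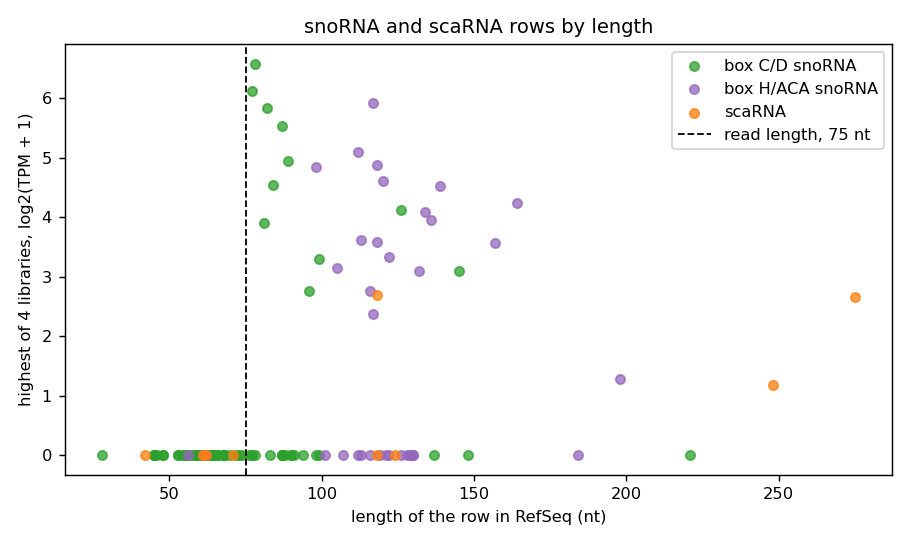
Each point is 1 of the 118 snoRNA and scaRNA rows with a RefSeq length, plotted by that length (x, nt) and by its highest value in the 4 libraries (y, log2(TPM + 1)), coloured by class. No row at or left of the dashed line at 75 nt is above 0.

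Classes differed in length and in how many rows were seen. Box C/D rows had a median length of 68 nt, and 11 of 74 (14.9%) were above 0 in any library. Box H/ACA rows had a median of 120 nt, and 18 of 36 (50.0%) were above 0 in any library. Of the 9 scaRNA rows, 3 were. These totals include rows of at most 75 nt, which numbered 44 box C/D, 3 box H/ACA and 4 scaRNA rows. Among rows of 100 nt and over the counts were 2 of 5 box C/D, 17 of 32 box H/ACA and 3 of 5 scaRNA rows. Over all rows of the tables, 73.1%, 68.7%, 72.4% and 73.3% were above 0 in control 1, control 2, KO 1 and KO 2.

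By library, 14 snoRNA and scaRNA rows were above 0 in control 1, 9 in control 2, 21 in KO 1 and 22 in KO 2. Both KO-labelled libraries thus listed more rows than either control. Of the 32 rows above 0, 13 were so in 1 library, 9 in 2 libraries, 5 in 3 libraries and 5 in all 4. There were 14 rows above 0 only in KO-labelled libraries and 3 only in controls, a split that was not counted over all genes. More microRNA rows, too, were above 0 in the KO-labelled libraries. Of 1172 microRNA rows, 24 and 21 were above 0 in the controls and 34 and 33 in the KO-labelled libraries. The summed TPM of the 119 snoRNA and scaRNA rows was 130 and 182 in the controls and 317 and 430 in the KO-labelled libraries.

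These values rest on very few reads in the 3 libraries where that could be worked out. A row of a given length offers as many start positions to a 75-nt read as its length minus 74, and TPM is proportional to reads divided by that number for a short row with no isoforms. The product of TPM and length minus 74 fell on a common step for microRNA rows in control 1 (8 rows), KO 1 (14 rows) and KO 2 (9 rows), and this step was taken as the value of 1 read. It was 245 in control 1, 221 in KO 1 and 180 in KO 2, so 1 read was worth the most TPM in control 1 and the least in KO 2, the order opposite to that of the number of rows above 0. The part of this order in the counts of rows was not tested. In control 2 only 2 microRNA rows shared a product, and no step could be given.

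Measured against these steps, the snoRNA and scaRNA rows fell on whole multiples within 0.1 for 14 of 14 rows in control 1, 20 of 21 in KO 1 and 20 of 22 in KO 2. The multiples ran from 1 to 4 with a median of 1 in control 1, from 1 to 11 with a median of 2 in KO 1, and from 1 to 13 with a median of 3 in KO 2. Rows at a multiple of 1 numbered 8, 7 and 7, and the multiples added up to 28, 48 and 84. The RefSeq lengths carried this result, since of 41 values above 0 in rows whose length differs between the annotations, 39 were whole with the RefSeq length and 6 with the GENCODE length. The exceptions were Snord7 in KO 1 and Snord1c and Snord35b in KO 2.

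**Figure D2:**
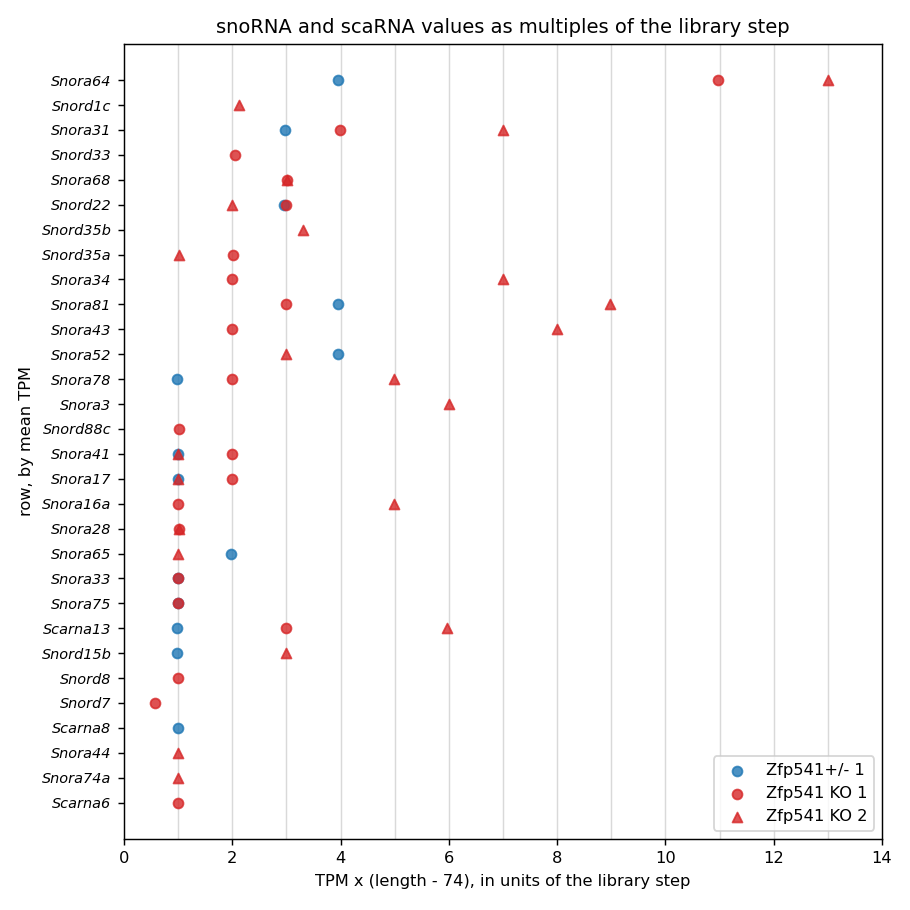
Each point is the TPM of a snoRNA or scaRNA row times its length minus 74, divided by the step of its library (x), for the rows (y, by mean TPM) above 0 in control 1, KO 1 or KO 2. All but 3 points sit within 0.1 of a whole number, none above 13, so most rows rest on a handful of reads.

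Among box C/D rows, Snord22, hosted by Snhg1, was the only row above 0 in all 4 libraries. It was at 13.9 TPM in control 1, 16.5 in control 2, 12.7 in KO 1 and 6.91 in KO 2, which are 3, 3 and 2 reads in control 1, KO 1 and KO 2. Both KO-labelled libraries were below both controls, with a log2 fold change of -0.63 (standard error, SE, 0.41, limma adjusted p = 0.518), so the difference was within the spread. It was -1.03 without KO 1 and -0.24 without KO 2.

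The other box C/D rows appeared in 1 or 2 libraries. Snord83b, inside the ribosomal protein gene Rpl3, was at 69.1 TPM in control 2 and at 0 elsewhere, and Snord1c was at 95.1 TPM in KO 2 and at 0 elsewhere. These are the highest single values among snoRNA rows, and both belong to rows that offer only 3 or 4 start positions. Inside Rpl13a, another ribosomal protein gene, Snord33 was at 56.5 TPM in KO 1 alone. Snord35a, from the same gene, was at 29.7 and 12.1 TPM in KO 1 and KO 2 and at 0 in the controls. Snord35b was at 45.6 TPM in KO 2 and at 0 elsewhere, and Snord88c was at 22.5 TPM in KO 1 and at 0 elsewhere.

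Of the 5 rows above 0 in all libraries, 3 were box H/ACA rows. Snora64, inside the ribosomal protein gene Rps2, was at 22.5, 59.9, 56.4 and 54.4 TPM in control 1, control 2, KO 1 and KO 2, with 4, 11 and 13 reads in control 1, KO 1 and KO 2. Control 1 was the low library and the groups overlapped. Snora78 was at 2.91, 5.73, 5.30 and 10.8 TPM, and Snora17 at 4.17, 5.74, 7.59 and 3.10 TPM, and the groups overlapped for both. Snora64 lies wholly on exon sequence of Rps2 in GENCODE, so reads of the host messenger RNA and of the snoRNA row cannot be separated there.

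Several box H/ACA rows were seen in 3 libraries. Snora31, inside Tpt1, was at 19.1 TPM in control 1, 0 in control 2, 23.2 in KO 1 and 33.1 in KO 2. Its log2 fold change was 2.68 (SE 1.52, limma adjusted p = 0.466). This value turned on the 0 in control 2, since it was 4.85 without control 1 and 0.52 without control 2. Snora81, inside the translation factor gene Eif4a2, was at 10.7, 0, 7.33 and 17.9 TPM, and Snora41, inside Eef1b2, at 6.21, 0, 11.3 and 4.61 TPM. Snora28, inside Eif5, was at 0, 9.12, 4.69 and 3.82 TPM. For Snora81, Snora41 and Snora28 the groups overlapped. Snora52, inside Rplp2, was at 16.1 TPM in control 1 and 8.98 in KO 2 and at 0 in the remaining libraries, and Snora3, inside Rpl27a, was at 23.4 TPM in KO 2 alone.

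Among scaRNAs, Scarna13, inside Snhg10, was above 0 in all 4 libraries. It was at 1.20 TPM in control 1, 1.18 in control 2, 3.28 in KO 1 and 5.34 in KO 2, with 1, 3 and 6 reads in control 1, KO 1 and KO 2. Both KO-labelled libraries were above both controls, with a log2 fold change of 1.25 (SE 0.42, limma adjusted p = 0.327). Scarna6 was at 1.26 TPM in KO 1 alone and Scarna8 at 5.50 TPM in control 1 alone, each worth 1 read.

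No snoRNA or scaRNA row passed an FDR of 0.05 between the groups. Of all 14512 genes that averaged 1 TPM or more, 0 (0%) passed in limma on log2(TPM + 1), with 2091 at an unadjusted p under 0.05. The authors, who used RSEM, called genes in both directions at an FDR of 0.05. With 2 libraries per group, a gene that did not pass here is not shown to be equal between the groups. Over all genes tested, 38.6% were higher in both KO-labelled libraries than in both controls and 12.1% were lower in both. Of the 119 snoRNA and scaRNA rows, 30 reached that mean, 12 of them with both controls at 0 and 3 with both KO-labelled libraries at 0, so a row that reached it through 1 group had to differ. With either control left out, the spread was estimated from the rest, mainly the close pair of KO-labelled libraries, and 11 of the 30 rows passed without control 1 and 7 without control 2, against 48.1% and 28.4% of all genes tested.

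The rows above both controls in both KO-labelled libraries were Scarna13, Snora31, Snora34, Snora16a, Snora43, Snora68 and Snord35a, and Snord22 was the one below. Snora34, inside Kansl2, was at 0 in control 1, 1.08 TPM in control 2, and 10.02 and 28.6 TPM, or 2 and 7 reads, in KO 1 and KO 2. Its log2 fold change was 3.65 (SE 0.71, limma adjusted p = 0.310), and it was 3.12 without control 1 and 4.17 without control 2. A count of 0 in control 1 allows up to 3 reads, or 16.7 TPM, for Snora34, a bound that covers counting error only and lies between both values.

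The remaining rows of this kind were listed at 0 in both controls, so no fold change is given. Snora43, inside Snhg7, was at 6.77 and 22.1 TPM in KO 1 and KO 2 (2 and 8 reads), against a bound of 11.3 TPM in control 1. Snora16a, inside Snhg12, was at 3.55 and 14.5 TPM (1 and 5 reads), against 11.8 TPM. Snora68 was at 27.7 and 22.6 TPM (3 and 3 reads), against 30.6 TPM, and for Snord35a the bound was 49.0 TPM. For Snora68 and Snord35a both values lie under the bound in control 1. That bound covers counting error in control 1 only, so it does not decide on a difference between the groups.

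All 16 host genes were above 0, 15 of them in all 4 libraries. By mean TPM the order ran from Snhg3 (88.7) to Snhg9 (2.58), with a median over the hosts of 13.97 TPM. Their summed TPM was 501 and 246 in the controls and 379 and 388 in the KO-labelled libraries. The KO-labelled libraries lay close together, with a median gap between them of 0.15 on the log2(TPM + 1) scale, against 0.64 between the controls, and the gap was larger between the controls for 15 of 16 hosts, Snhg9 being the exception. Over all genes tested the same medians were 0.16 and 0.65.

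**Figure D3:**
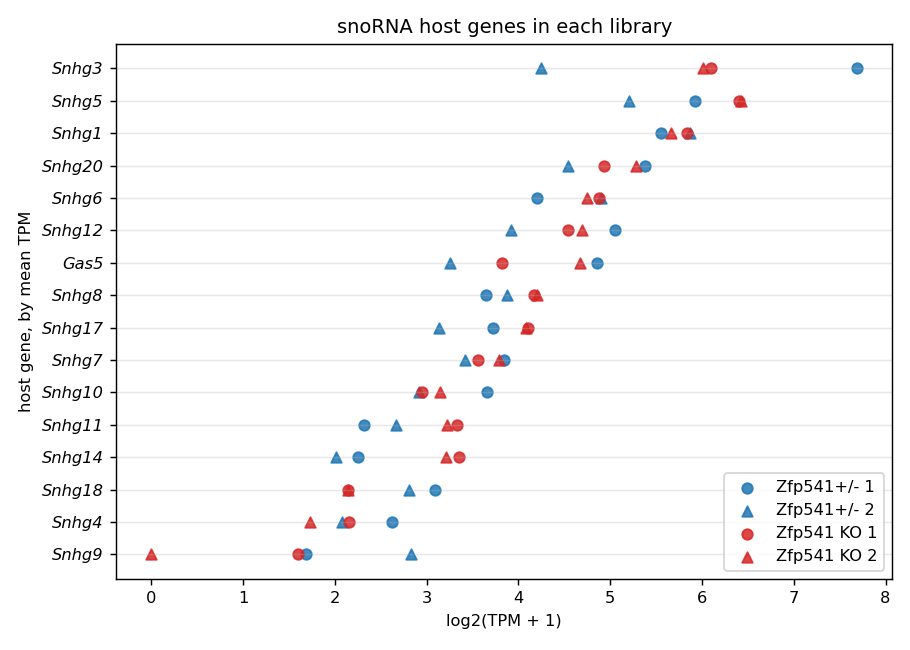
The level of each host gene (y, by mean TPM) in the 4 libraries (x, log2(TPM + 1)), with controls in blue and KO-labelled libraries in red, circles for replicate 1 and triangles for replicate 2. The red points nearly coincide for most hosts, while the blue points of Snhg3 lie at 206 and 18.0 TPM.

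Snhg3 had the widest spread. It was at 206 TPM in control 1, 18.0 in control 2, 67.7 in KO 1 and 63.6 in KO 2, so both KO-labelled libraries lay between the controls. Control 1 also had the highest and control 2 the lowest summed Leydig cell and macrophage markers, and their part in the level of Snhg3 was not tested. Gas5, whose introns hold many box C/D snoRNAs, was at 27.9, 8.54, 13.2 and 24.4 TPM in control 1, control 2, KO 1 and KO 2. Snhg12 was at 32.1, 14.2, 22.3 and 24.9 TPM and Snhg20 at 40.7, 22.3, 29.6 and 37.8 TPM. For Gas5, Snhg12 and Snhg20, too, both KO-labelled libraries lay between the controls. In all, 11 of the 16 hosts were lower in control 2 than in control 1.

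The groups overlapped for 5 further hosts. Snhg1 was at 46.1, 57.3, 56.2 and 49.8 TPM in control 1, control 2, KO 1 and KO 2, the narrowest range among the 5 most abundant hosts. Snhg6 was at 17.4, 28.8, 28.3 and 25.8 TPM, with control 1 the low library. Snhg7 was at 13.3, 9.65, 10.8 and 12.9 TPM, and Snhg10 at 11.6, 6.56, 6.75 and 7.86 TPM. Snhg4 was at 5.14, 3.21, 3.46 and 2.32 TPM.

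Of the 16 hosts, 5 were higher in both KO-labelled libraries than in both controls and 2 were lower, against 38.6% and 12.1% of all genes tested, and none passed the FDR. With median-ratio scaling of the libraries, the counts were 4 and 5 hosts against 23.1% and 22.3% of all genes. The median log2 fold change of the hosts was 0.14, beside 0.28 over all genes tested. It turned to -0.17 with median-ratio scaling, which moved the median of all genes to -0.0071, to -0.17 with quantile normalization and to -0.22 without control 2.

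Snhg5 was at 59.9 TPM in control 1, 35.9 in control 2, 83.8 in KO 1 and 84.8 in KO 2. Its log2 fold change was 0.85 (SE 0.31, limma adjusted p = 0.340). Snhg14, the long transcript that runs through the Snord116 cluster and opposite Ube3a, was at 3.75 and 3.04 against 9.21 and 8.27 TPM, the largest positive difference among the 16 hosts at a log2 fold change of 1.15 (SE 0.37, limma adjusted p = 0.322). These are also the hosts with an unadjusted p under 0.05, and neither passed after adjustment. Without control 1 the log2 fold changes of Snhg5 and Snhg14 were 1.21 and 1.27. Without control 2 they were 0.49 and 1.03.

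Snhg17 was at 12.3 and 7.80 against 16.2 and 16.0 TPM, and Snhg11, a neighbour of it on chromosome 2, was at 3.99 and 5.34 against 9.08 and 8.31 TPM. Their log2 fold changes were 0.66 (limma adjusted p = 0.448) and 0.78 (adjusted p = 0.406). That of Snhg17 was 0.96 without control 1 and 0.37 without control 2. Snhg8 was at 11.5 and 13.7 against 17.0 and 17.4 TPM, with a log2 fold change of 0.42 (limma adjusted p = 0.540), and its groups overlapped after median-ratio scaling. Each of the 3 was higher in both KO-labelled libraries as deposited.

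Snhg18 was at 7.52 TPM in control 1, 5.99 in control 2, 3.42 in KO 1 and 3.43 in KO 2, with a log2 fold change of -0.80 (SE 0.37, limma adjusted p = 0.400). Snhg9 was at 2.21 and 6.10 against 2.02 and 0 TPM, with a log2 fold change of -1.46 (SE 0.77, limma adjusted p = 0.437), which ranged from -2.26 without KO 1 to -0.66 without KO 2 and was -0.89 without control 2. Snhg9 lies on the strand opposite to Rps2 over all 435 nt of its span, and Gas5, Snhg3, Snhg6 and Snhg14 also overlap a gene on the other strand in part. The kit is not described as keeping strand, so reads of such partners cannot be told apart. Without control 1, 5 of the 16 hosts passed the FDR, against 48.1% of all genes tested, and without control 2, 3 did, against 28.4%.

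Hosts were compared with the rows they contain. By position on the same strand, 15 snoRNA and scaRNA rows lay inside 10 of the 16 hosts. Of the 15 rows, 8 were at 0 in every library while their hosts were not. Only 11 of the 15 are over 75 nt. The rest are shorter than the reads and offer no start position, so their values, counted below, could only lie under the host. The hosted row was below its host in 56 of 60 values, and the median of log2((hosted TPM + 1)/(host TPM + 1)), averaged over libraries, was -2.71. It was -5.79 with a pseudocount of 0.1 and -1.74 with 5, since most hosted rows were at or near 0.

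**Figure D4:**
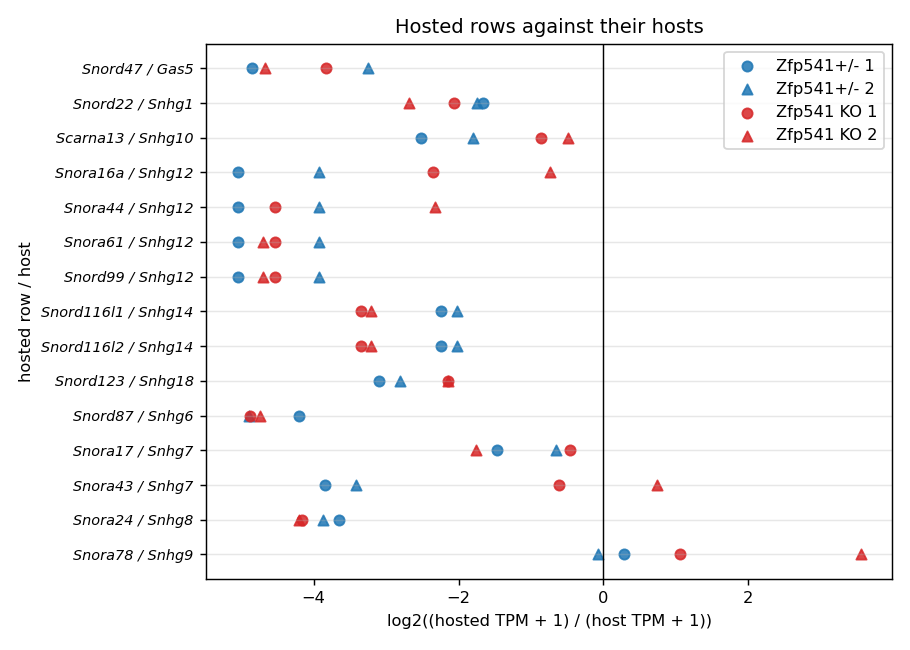
The log2 ratio of hosted to host TPM, with a pseudocount of 1 (x), for 15 pairs (y) in the 4 libraries, with controls in blue and KO-labelled libraries in red. Points right of 0 are found only for Snora78 with Snhg9 and for Snora43 with Snhg7 in KO 2.

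The pairs differed in how far host and hosted row went together. Scarna13 was higher in both KO-labelled libraries while its host Snhg10 overlapped, so their log2 ratio was -2.52 and -1.79 in the controls and -0.86 and -0.48 in the KO-labelled libraries. Snora43 and Snora17 share the host Snhg7. The ratio of Snora43 was -3.84 and -3.41 in the controls and -0.61 and 0.74 in the KO-labelled libraries, while that of Snora17 was -1.47 and -0.66 against -0.46 and -1.76. Snora43 was at 0 in both controls, so its ratios there were set by the pseudocount and the level of Snhg7 alone. Where these rows were above 0 in control 1, KO 1 or KO 2, they rested on 1 to 8 reads. The ratios thus carry the counting error of the hosted row.

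In Snhg12, Snora16a was seen in both KO-labelled libraries and Snora44 in KO 2 alone at 4.18 TPM, while Snora61 and Snord99, at 62 and 56 nt, were at 0. For Snhg14, the 90-nt rows Snord116l1 and Snord116l2 were at 0 in every library although the host was above both controls in both KO-labelled libraries. Snora24, with 130 nt wholly on exon sequence of Snhg8, was also at 0 throughout. Snora78 was above its host Snhg9 in control 1, KO 1 and KO 2, with log2 ratios of 0.28, 1.06 and 3.56, and slightly below it in control 2 at -0.08.

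Other genes hosted most of the small RNA rows. A further 68 genes of the tables contain a snoRNA or scaRNA row on the same strand, of which 23 encode ribosomal proteins. Rows inside ribosomal protein genes were above 0 in any library for 12 of 32 rows, or of 21 over 75 nt. For rows inside the other genes it was 12 of 59, or of 29 over 75 nt. Rows inside the 16 hosts gave 7 of 15, or of 11 over 75 nt, and rows with no host found 1 of 13, or of 6. No row of at most 75 nt was above 0. Among rows over 75 nt, the median host level was 252 TPM for the 31 rows above 0 and 71.5 TPM for the 30 at 0, and the ranges overlapped. Of rows over 75 nt, 16 of 30 that overlap a host exon were above 0 in any library, and 13 of 29 that lie in a host without touching an exon.

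The 5 most abundant of these hosts were Rpl32, Rps12, Tpt1, Rplp2 and Rpl23a. Rpl32 was at 1594, 3817, 1869 and 1728 TPM in control 1, control 2, KO 1 and KO 2, while Snora7a, 129 nt inside it, was at 0 throughout. Rps12 was at 1416, 3069, 2371 and 2128 TPM, and Rplp2 at 1148, 3382, 1529 and 1353 TPM. Rpl23a was at 1357, 2633, 1551 and 1410 TPM and Tpt1 at 1771, 2153, 1819 and 1704 TPM. Control 2 was the high library for each, and 22 of the 23 ribosomal protein hosts were higher in control 2 than in control 1, with summed TPM of 40579 and 20843, while the KO-labelled libraries were at 25682 and 23712.

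The 5 largest differences among these hosts were all positive. Ckap5, a microtubule regulator that hosts Snord67, was at 106 and 89.9 TPM among controls against 221 and 226 TPM (log2 fold change 1.18, SE 0.19). Ncl, which encodes the nucleolar protein nucleolin and hosts Snora75 and Snord82, was at 152 and 158 against 355 and 344 TPM (1.17, SE 0.17). The adjusted p from limma was 0.310 for both. Without control 1, Ckap5 and Ncl were at log2 fold changes of 1.3 and 1.14, and without control 2 at 1.06 and 1.20. Snora75 itself was at 5.76 TPM in control 1 and 5.25 in KO 1, 1 read each, and at 0 in the other libraries, and Snord67 was at 0.

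Chd8, a chromatin remodelling gene that hosts Snord8, was at 49.3 and 36.8 against 90.6 and 97.7 TPM (log2 fold change 1.12). Cep295, a centriole gene that hosts Scarna9, was at 49.8 and 29.6 against 78.0 and 88.6 TPM (log2 fold change 1.09). The noncoding 2700038G22Rik, which hosts Snord93, was at 3.71 and 2.41 against 7.04 and 8.69 TPM (log2 fold change 1.14). The adjusted p from limma lay between 0.310 and 0.338 for these 3 genes, none of which passed. Without control 1, Chd8, Cep295 and 2700038G22Rik were at 1.33, 1.46 and 1.37, and without control 2 at 0.92, 0.73 and 0.91. The host 1810032O08Rik, listed in RefSeq as Snhg16 and so no member by its name in the tables, contains Snord1c and was at 26.6 and 26.3 against 20.1 and 20.8 TPM.

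Among the 67 of these hosts that were tested, 32 were higher and 6 lower in both KO-labelled libraries than in both controls, against 38.6% and 12.1% of all genes tested. For the 23 ribosomal protein hosts the counts were 1 and 3, with a median log2 fold change of -0.30. Their summed TPM was 20843 and 40579 in control 1 and control 2, so both KO-labelled libraries, at 25682 and 23712, lay between the controls. For the other 44 tested the counts were 31 and 3, with a median of 0.53, beside 0.28 over all genes. With median-ratio scaling, 22 of the 67 were higher and 14 lower, against 23.1% and 22.3% of all genes. No member of either group passed the FDR with all 4 libraries, and 46 of the 67 did without control 1 and 17 without control 2, against 48.1% and 28.4% of all genes tested.

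**Figure D5:**
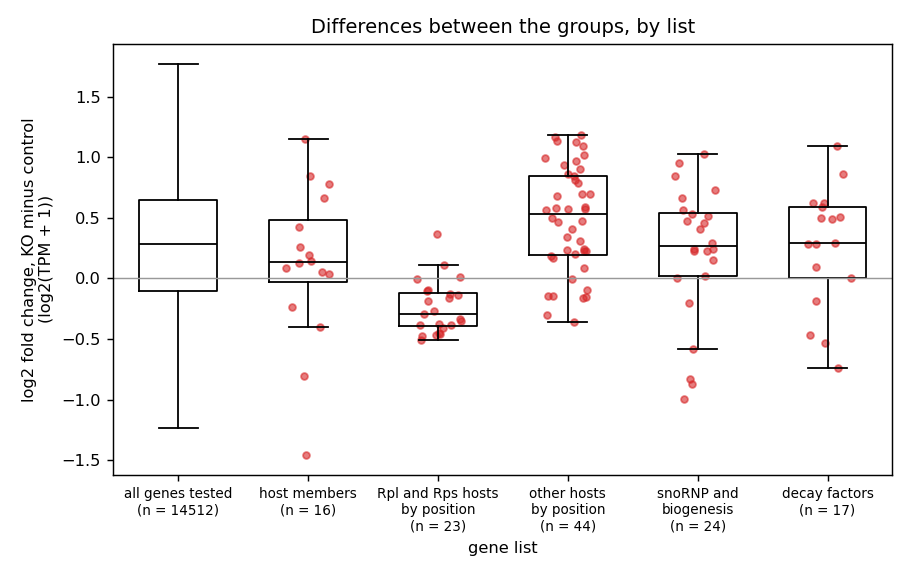
Log2 fold changes between the groups (y, KO minus control on log2(TPM + 1)) for all 14512 genes tested and for 5 lists, with boxes for the quartiles, whiskers to at most 1.5 box lengths and points for single genes. The ribosomal protein hosts lie mostly below 0 with a median of -0.30, though their summed TPM in both KO-labelled libraries lay between the controls. The other hosts by position have a median of 0.53, against 0.28 for all genes.

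The proteins that bind and build snoRNAs were well measured. All 24 genes of this list, from general knowledge of the pathway, were tested, with mean levels from 15.01 to 307 TPM and a median log2 fold change of 0.27, beside 0.28 over all genes. Of the 24, 13 were higher and 4 lower in both KO-labelled libraries than in both controls, against 38.6% and 12.1% of all genes tested, and none passed the FDR. The median was -0.043 with median-ratio scaling, and 13 of the 24 passed without control 1 and 12 without control 2, against 48.1% and 28.4% of all genes.

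For the box C/D core, Nop56 was at 70.4 and 117 TPM among controls against 175 and 154 TPM in KO 1 and KO 2 (log2 fold change 0.85, limma adjusted p = 0.343). Its partner Nop58 was at 159 and 140 against 206 and 208 TPM (log2 fold change 0.47, adjusted p = 0.354). For the box H/ACA core, Gar1 was at 110 and 99.7 against 171 and 161 TPM (log2 fold change 0.66, limma adjusted p = 0.315). Nop10 was lower in both KO-labelled libraries, at 248 and 346 against 192 and 199 TPM (log2 fold change -0.58, adjusted p = 0.369). Nhp2l1, the older symbol of the box C/D protein gene Snu13, was at 191, 392, 347 and 296 TPM with overlapping groups. Dkc1, the pseudouridine synthase of box H/ACA particles, was at 16.4, 19.0, 22.3 and 19.98 TPM. Without control 1, Nop56, Nop58, Gar1 and Nop10 were at log2 fold changes of 0.48, 0.57, 0.73 and -0.82. Without control 2 they were at 1.21, 0.38, 0.59 and -0.34.

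Among assembly and maturation factors, Tgs1, which trimethylates the caps of small nuclear RNAs and of some snoRNAs, was at 15.3 and 12.4 against 29.4 and 28.7 TPM (log2 fold change 1.03, limma adjusted p = 0.315). Papd5, the older symbol of Tent4b, whose product adds short adenosine tails to RNAs that are then trimmed, was at 50.2 and 17.6 against 54.8 and 62.8 TPM (log2 fold change 0.95, adjusted p = 0.466). Coil, which encodes the Cajal body scaffold coilin, was at 93.0 and 47.5 against 29.3 and 37.0 TPM (log2 fold change -0.99, limma adjusted p = 0.362). The groups did not overlap for Tgs1, Papd5 and Coil, and none of the 3 passed the FDR. Without control 1, Tgs1, Papd5 and Coil were at 1.17, 1.68 and -0.51, and without control 2 at 0.88, 0.22 and -1.47.

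Nonsense-mediated decay is the route that removes many spliced host RNAs. Of 17 decay factors, all of them tested, 9 were higher and 3 lower in both KO-labelled libraries, against 38.6% and 12.1% of all genes tested, with a median log2 fold change of 0.30 beside 0.28 over all genes, and 0 passed the FDR or an unadjusted p under 0.05. Smg1, the kinase of the pathway, was at 71.0 and 32.9 against 105 and 105 TPM (log2 fold change 1.10, limma adjusted p = 0.347). Upf2 was at 57.0 and 29.3 against 70.9 and 79.4 TPM (log2 fold change 0.86, adjusted p = 0.383). Upf3a was at 323 and 141 against 123 and 132 TPM (log2 fold change -0.74, limma adjusted p = 0.484). With control 1 left out, Smg1, Upf2 and Upf3a were at 1.64, 1.33 and -0.15. With control 2 left out they were at 0.55, 0.39 and -1.33. Of the 17 decay factors, 10 passed the FDR without control 1, against 48.1% of all genes tested, and 7 without control 2, against 28.4%.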

How the data were processed

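RNA of 4 sorted libraries was analysed, 2 per group by their labels. Reads were trimmed and aligned to mm10 by the authors, who deposited TPM, a length-corrected abundance with the same total in every library. The submitters' processing notes name STAR 2.6.0a, Trim Galore 0.5.0, cutadapt 1.16 and RSEM 1.3.1. The 2 groups were compared on log2(TPM + 1), which understates the change of low genes, for genes averaging 1 TPM or more, with limma 3.58.1 (R 4.3.3, two-sided, variance trend) and an FDR of 0.05 after Benjamini-Hochberg adjustment. With 2 against 2, the smallest exact permutation p is 0.33. The p-values measure only the spread between these libraries. The fit was tested on simulated data.

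Lengths came from RefSeq (GRCm38.p6, 134 of 135 members matched), and positions, exons and sequences from GENCODE M21. Steps were read from microRNA rows within 2% of each other. Named genes were every host, rows above 0 in all libraries or among the 20 highest means, the 3 largest changes of each protein list, and the 5 largest changes and 5 highest levels among other hosts. Members and lists were chosen with earlier results of these data known. Zfp541 and Rec8 served as a check of the labels. Total read depth is not given by TPM.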

Additional observations from a re-analysis of the deposited data

How the results depend on the processing

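No gene list gained a call at an FDR of 0.05 from another pseudocount, filter, scaling or variance model, and of all genes 2 passed with no filter. Under median-ratio scaling the median log2 fold change of all genes turned from 0.28 to -0.0071, of the hosts to -0.17, of the snoRNP and biogenesis proteins to -0.043, of the decay factors to -0.022 and of the 68 hosts by position to -0.10. Quantile normalization gave -0.17 for the hosts and 0.13 for the decay factors, and no filter gave 0.018 for all genes. Leaving out each library in turn gave from 0 to 6985 genes past the FDR, the highest without control 1 and 4123 without control 2, and from 0 to 11 snoRNA and scaRNA rows. The lone control was then assumed to vary like the other group. The medians then ranged from -0.22 to 0.44 for the hosts, from 0.10 to 0.37 for the snoRNP and biogenesis proteins and from 0.27 to 0.39 for the decay factors. Of the 119 small RNA rows, 32 were above 0 and 20 reached 10 TPM. The ratio of hosted rows to hosts was -5.79 with a pseudocount of 0.1 and -1.74 with 5. Libraries of the same replicate number did not deviate together from their group means (correlation -0.16 across genes). With 2 libraries per group the deviations mirror each other, so this value cannot decide whether libraries were paired. With a replicate block 0 genes passed, and the median of the hosts stayed at 0.14. With the numbers crossed as a block, chosen after seeing the data, 87 genes passed. Few reads per row limit the comparisons of the small RNA rows.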
